A study of Mus musculus with 6 samples.

Results

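The proteasome genes of mouse Ba/F3 cells were examined with the ETV6::FRK fusion switched on or off. The members were all rows whose gene symbol begins with Psm, one of the letters a to g and a number, which gave 50 of the 14238 genes in the deposited table. Of these, 49 passed the low-count filter and were tested, and the pseudogene row Psmb7-ps2 was not. They comprised 5 immunoproteasome genes, 31 constitutive genes of the 20S core and the 19S cap, 7 assembly chaperones, the activator genes Psme3 and Psme4, the inhibitor gene Psmf1, the testis form Psma8, the Psme2 copy Psme2b and Psmc3ip. Psmc3ip matches by symbol only and encodes a recombination factor, not a proteasome subunit.

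Ba/F3 cells are an established line of mouse pro-B cells whose growth depends on interleukin-3. All 6 libraries came from Ba/F3 cells transduced with ETV6::FRK, a fusion of a transcription factor gene to a tyrosine kinase gene, in a retroviral Tet-On system that doxycycline switches on. The 3 induced libraries received 500 ng/ml doxycycline and the 3 control libraries none, and RNA was taken at 48 h. Titles of the induced libraries carry DOXp-IL3n and those of the controls DOXn-IL3p, so that the fusion, the drug and whatever the IL3 mark stands for cannot be told apart. Replicates 1, 2 and 3 carry the prefixes EF1, EF2 and EFPC in both groups, and no source used here says whether these are clones, lines or pools. No label says that the replicates were grown as separate experiments, and the p-values then cover only the spread among these 6 libraries, which may be technical.

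The proteasome is the protease complex that degrades proteins marked with ubiquitin. Its barrel-shaped 20S core has outer rings of alpha subunits and inner rings of beta subunits, and 3 of the beta subunits carry the cutting sites. The 19S cap binds ubiquitin, unfolds the substrate with ATPases and feeds it into the core. Interferons are known to induce Psmb8, Psmb9 and Psmb10, whose products replace the constitutive subunits encoded by Psmb5, Psmb6 and Psmb7 in newly built cores, and Psme1 and Psme2, which encode the PA28 activator. The resulting immunoproteasome is known for cutting peptides that MHC class I can present.

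Library totals ran from 30970019 to 43177842 counts and overlapped between the groups. Etv6, the mouse gene of one fusion partner, had 86.2, 81.3 and 94.6 CPM (counts scaled to library size with TMM factors) in control replicates 1 to 3 and 259, 230 and 120 CPM in induced replicates 1 to 3, so that induced replicate 3 lay nearest to the controls. Frk was not analysed here. Of 10 markers of the B lineage, Cd79a and Cd79b had a row, with a summed level of 18.5 to 23.5 TPM (length-corrected transcript levels, made by the authors) in the controls and 8.93 to 23.2 TPM in the induced libraries, and the other 8 were not analysed here. All 3 interleukin-3 receptor genes on the marker list had a row. Their summed level was 603 to 733 TPM in the controls and 1077 to 2664 TPM in the induced libraries. Csf2rb had 306 to 396 TPM in the controls and 554 to 1468 TPM in the induced libraries. Csf2rb2 had 244 to 307 TPM against 474 to 1138 TPM. Il3ra overlapped between the groups, at 30.1 to 53.7 TPM against 48.6 to 58.1 TPM. The part of these receptor genes in the results was not tested. Macrophage and dendritic, T and NK cell, and fibroblast markers had 3, 1 and 1 of 8 rows each, with summed levels of at most 27.4, 4.77 and 0.234 TPM. The summed macrophage and dendritic markers (Cd68, Adgre1 and Lyz2) were at 20.2 to 27.4 TPM in the controls and 13.1 to 15.8 TPM in the induced libraries, without overlap. All 3 had lower means in the induced libraries, but Cd68 and Lyz2 taken singly overlapped between the groups. DESeq2 called Adgre1 lower (adjusted p = 0.0057) but not Cd68 or Lyz2 (adjusted p = 0.333 and 0.358). The part of these markers in the results was not tested.

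The immunoproteasome genes had higher means and the constitutive genes lower means in the induced libraries, without a call in the main test. That test was edgeR's quasi-likelihood test with Benjamini-Hochberg adjustment over 13260 genes at a threshold of 0.05, and it called 0 genes of the whole table in either direction (0%). All 5 immunoproteasome genes had positive log2 fold changes, from 0.53 to 1.38 with a median of 0.87. All 31 constitutive genes had negative ones, from -0.48 to -0.05 with a median of -0.31. The median over all genes tested was -0.01, with 51.5% of them negative. At an unadjusted p under 0.05 edgeR had 1 of 5 immunoproteasome genes higher, where 9.34% of all genes were, and 10 of 31 constitutive genes lower, where 8.23% of all genes were.

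DESeq2 with the same terms called 906 genes of the table (6.9%, made up of 4.25% higher and 2.65% lower) and, among the 49 members, only Psme2b higher and Psmg1 lower. The same replicate numbers deviated together in both groups, by a small margin for replicate 1, and the replicate number was used as a block. DESeq2 with the replicate block called 3 of 5 immunoproteasome genes higher, where 6.4% of all genes were called higher. It called 3 of 31 constitutive genes lower, where 4.73% of all genes were called lower. edgeR with the replicate block called 0 genes, with unadjusted p under 0.05 for 4 of 5 immunoproteasome genes (10.9% of all genes higher) and for 15 of 31 constitutive genes (11.3% of all genes lower), out of 22.2% in either direction.

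**Figure D1:**
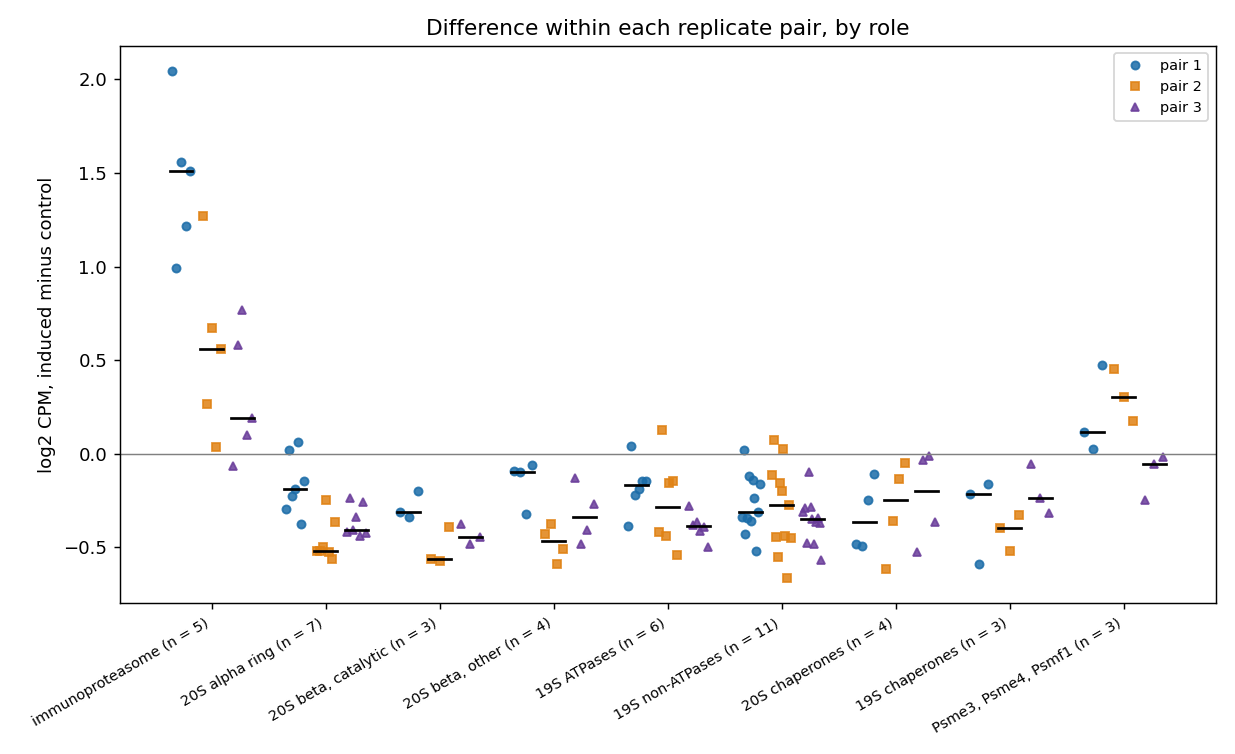
Difference in log2 CPM between the induced and the control library of the same replicate number, for the members grouped by role (points, 1 per gene and pair, with black bars at the medians). The immunoproteasome medians run from 1.51 in pair 1 to 0.56 in pair 2 and 0.19 in pair 3, while all constitutive groups have negative medians in all 3 pairs.

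Psmb8 encodes the inducible subunit that replaces the chymotrypsin-like subunit of Psmb5. It had 289, 403 and 205 CPM in control replicates 1 to 3 and 574, 484 and 305 CPM in induced replicates 1 to 3. The induced library was the higher one in each pair, but control replicate 2 lay above induced replicate 3, so the groups overlapped. The log2 fold change was 0.60 (SE 0.318, edgeR adjusted p = 0.363). With the replicate block it was 0.63 in DESeq2 (SE 0.208, adjusted p = 0.0308), against an adjusted p of 0.287 without the block.

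Psmb9, whose product replaces that of Psmb6, had 132, 193 and 71.8 CPM without doxycycline and 389, 307 and 122 CPM with it. Its log2 differences within pairs 1 to 3 were 1.56, 0.67 and 0.77, all positive, and the groups overlapped because induced replicate 3 lay below control replicates 1 and 2. The edgeR log2 fold change was 1.04 (SE 0.488, adjusted p = 0.319). DESeq2 with the replicate block gave 1.01 (SE 0.239, adjusted p = 0.000944), against an adjusted p of 0.166 without it. Psmb9 therefore had the smallest adjusted p of the 49 members under that fit.

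Psmb10, whose product replaces the trypsin-like subunit of Psmb7, differed between the pairs in size and sign. It had 47.2, 51.1 and 38.2 CPM without doxycycline and 195, 123 and 36.5 CPM with it. Induced replicates 1 and 2 lay far above all controls, and induced replicate 3 lay below all 3 of them. The edgeR log2 fold change was 1.38 (SE 0.527, adjusted p = 0.248), and DESeq2 gave an adjusted p of 0.0643 without and 0.036 with the replicate block.

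Psme1 and Psme2 encode the alpha and beta subunits of PA28, a ring that caps the core and opens it. Psme1 had 183, 223 and 186 CPM without doxycycline and 426, 229 and 200 CPM with it. Induced replicate 1 stood apart, induced replicate 2 lay just above control replicate 2, and induced replicate 3 lay among the controls. Psme2 had 104, 133 and 87.7 CPM without doxycycline and 297, 196 and 100 CPM with it, with induced replicates 1 and 2 above all controls and replicate 3 among them. Neither passed any test on all 6 libraries, and the value of Psme1 rested on induced replicate 1. The edgeR log2 fold changes were 0.53 (SE 0.296, adjusted p = 0.389) for Psme1 and 0.87 (SE 0.378, adjusted p = 0.294) for Psme2, and the adjusted p in DESeq2 with the replicate block was 0.293 and 0.0609. The log2 fold change of Psme1 was 0.12 when induced replicate 1 was left out and 0.067 when the whole EF1 pair was.

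How many immunoproteasome genes passed edgeR depended on the EFPC pair. Without replicate 3 of both groups, edgeR called Psmb9, Psmb10 and Psme2 higher, with adjusted p of 0.019, 0.00396 and 0.0243 and log2 fold changes of 1.10, 1.70 and 1.06, where 9.81% of all genes were called higher. It also called Psme2b higher (adjusted p = 0.00164). It then called no constitutive gene, where 6.37% of all genes were called lower, but the chaperone genes Psmg1 and Psmd5 were called lower (adjusted p = 0.0371 and 0.037). Without induced replicate 3 alone, it called Psmb10 and Psme2 higher (adjusted p = 0.00918 and 0.0431), where 4.63% of all genes were called higher and 2.04% lower; among the members, Psme2b was also called higher and Psmd5 lower (adjusted p = 0.0048 and 0.0492). Among the immunoproteasome genes, Psmb8 and Psmb9 had the larger differences in the EFPC pair, at 0.58 and 0.77 on the log2 scale. The others had -0.06 (Psmb10), 0.10 (Psme1) and 0.19 (Psme2). In these bulk samples, more cells that express a gene and more RNA of it per cell cannot be told apart.

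**Figure D2:**
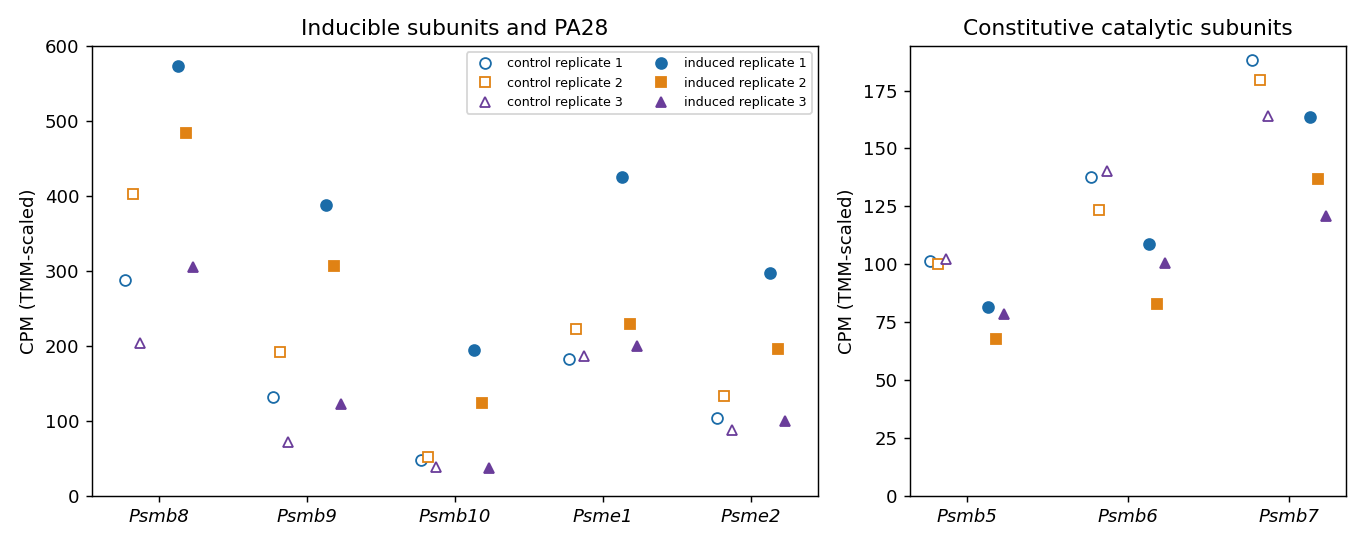
TMM-scaled CPM per library for the immunoproteasome genes (left) and the constitutive catalytic subunit genes (right); open symbols are controls, filled symbols induced libraries, and shape and colour give the replicate number. Induced replicate 3 of Psmb10, at 36.5 CPM, sits just below the controls, and the 3 induced libraries of Psmb5, Psmb6 and Psmb7 lie below all 3 of their controls.

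The sequences next to the start sites of Psme1, Psmb8 and Psmb9 are shown for the immunoproteasome genes, all of which had higher means. Psme1 and Psmb8 were the only immunoproteasome genes with a match to a motif named below. The windows of Psmb10 and Psme2, without a match, are not shown. Those of Psmb5 and Psmb6, constitutive counterparts with lower means, are also shown, and both held a match. That of Psmb7 is not shown. Each is 300 bases of RefSeq sequence on GRCm38.p6 (mm10), from 250 bases before the start site to 50 bases after it, read 5′ to 3′ on the gene's strand. The windows are chr14:55578244-55578543 on the plus strand for Psme1, chr17:34197945-34198244 on the plus strand for Psmb8 and chr17:34187281-34187580 on the minus strand for Psmb9. They are chr14:54617946-54618245 on the minus strand for Psmb5 and chr11:70525107-70525406 on the plus strand for Psmb6. Capitals mark matches to 3 motifs searched on both strands: the IRF element, which is GAAA, any 2 bases and GAAA, bound by interferon regulatory factors; the GAS motif TTCNNNGAA, known from interferon-gamma response genes; and TGACNNNGC, a core of the antioxidant response element that NFE2L1 binds.
Psme1: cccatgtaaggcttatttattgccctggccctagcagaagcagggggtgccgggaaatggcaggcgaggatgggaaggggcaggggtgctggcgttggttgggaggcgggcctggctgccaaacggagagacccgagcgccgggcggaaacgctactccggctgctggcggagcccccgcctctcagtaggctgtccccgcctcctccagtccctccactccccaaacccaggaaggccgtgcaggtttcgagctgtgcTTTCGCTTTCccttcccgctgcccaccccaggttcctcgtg
Psmb8: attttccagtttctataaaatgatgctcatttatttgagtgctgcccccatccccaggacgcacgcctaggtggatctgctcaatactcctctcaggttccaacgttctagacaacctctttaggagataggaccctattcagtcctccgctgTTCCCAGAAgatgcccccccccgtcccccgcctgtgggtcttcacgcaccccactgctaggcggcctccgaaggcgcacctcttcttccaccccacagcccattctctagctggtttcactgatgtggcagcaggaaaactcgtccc
Psmb9: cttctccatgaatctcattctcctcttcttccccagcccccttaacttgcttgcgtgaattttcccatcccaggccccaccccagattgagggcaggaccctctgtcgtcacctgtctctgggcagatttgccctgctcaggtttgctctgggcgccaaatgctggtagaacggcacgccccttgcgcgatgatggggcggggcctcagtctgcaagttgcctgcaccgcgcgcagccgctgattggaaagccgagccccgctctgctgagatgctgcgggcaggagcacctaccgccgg
Psmb5: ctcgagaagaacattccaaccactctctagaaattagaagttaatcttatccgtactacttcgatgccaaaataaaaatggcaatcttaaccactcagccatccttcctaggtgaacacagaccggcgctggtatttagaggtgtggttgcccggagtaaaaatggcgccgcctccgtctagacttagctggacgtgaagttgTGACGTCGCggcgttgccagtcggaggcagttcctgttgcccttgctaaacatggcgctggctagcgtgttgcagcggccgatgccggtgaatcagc
Psmb6: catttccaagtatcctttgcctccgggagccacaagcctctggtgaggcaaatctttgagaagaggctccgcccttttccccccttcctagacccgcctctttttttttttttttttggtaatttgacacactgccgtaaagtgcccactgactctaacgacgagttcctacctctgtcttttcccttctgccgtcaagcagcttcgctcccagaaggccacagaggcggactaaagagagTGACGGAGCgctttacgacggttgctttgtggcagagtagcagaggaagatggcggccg

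The Psme1 window held an IRF element 10 bases into the transcribed part, on the reverse strand, and the Psmb8 window a GAS motif starting 97 bases before the start site. Neither motif was found in the windows of Psmb9, Psmb10 and Psme2. An IRF element stood in 1 of 5 immunoproteasome genes, in 2 of the 25 constitutive genes that had a window (Psmb3 and Psmd4) and in 3.99% of 27025 genes with a window. A GAS motif stood in 1 of 5, in 1 of 25 (Psmd2) and in 9.55% of all. The TGACNNNGC core stood in 0 of 5, in 4 of 25 (Psmb5, Psmb6, Psmc6 and Psmd12) and in 14% of all. These counts describe letters in a short window and say nothing of binding.

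Psmb9 shares its start region with Tap1, which encodes a subunit of the transporter that carries the cut peptides into the endoplasmic reticulum. The start sites lie 226 bases apart on opposite strands, and their windows overlap by 275 bases (chr17:34187306-34187580). Tap1 had 139, 199 and 79 CPM without doxycycline and 679, 519 and 172 CPM with it, with log2 differences of 2.29, 1.38 and 1.12 in pairs 1 to 3, each above that of Psmb9 in the same pair. Its adjusted p was 0.191 in edgeR, 0.0132 in DESeq2 and 4.03e-07 in DESeq2 with the replicate block. Tap2, the other transporter subunit, encoded close to Psmb8, had 394, 605 and 215 CPM without doxycycline and 702, 600 and 340 CPM with it, and passed none of these tests (adjusted p = 0.618, 0.598 and 0.126).

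The constitutive catalytic subunit genes had lower levels in the induced libraries. Psmb5 had 101, 99.9 and 102 CPM without doxycycline and 81.5, 67.7 and 78.7 CPM with it. Psmb6 had 138, 123 and 140 CPM against 109, 82.9 and 101 CPM, and Psmb7 had 188, 179 and 164 CPM against 164, 137 and 121 CPM. In all 3 genes every induced library lay below every control, which held for 13% of all genes tested, though narrowly for Psmb7, and the 3 controls of Psmb5 differed by less than 3 CPM. The edgeR log2 fold changes were -0.41, -0.46 and -0.34 with adjusted p of 0.191, 0.203 and 0.323 in that order. Of the 3, DESeq2 with the replicate block called Psmb6 lower (adjusted p = 0.0401), and it gave 0.0807 for Psmb5 and 0.155 for Psmb7.

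Within each library, the ratio of the inducible to the constitutive transcript does not depend on how libraries are scaled, and TPM corrects it for length. The Psmb8 to Psmb5 ratio of TPM was 2.03, 2.88 and 1.43 in the controls and 5.01, 5.09 and 2.77 in the induced libraries. Psmb8 transcripts thus outnumbered those of Psmb5 in every library, the controls included. The Psmb9 to Psmb6 ratio was 1.09, 1.81 and 0.588 in the controls and 4.15, 4.33 and 1.42 in the induced libraries, so that Psmb9 was below Psmb6 in control replicate 3 only. The Psmb10 to Psmb7 ratio was 0.189, 0.213 and 0.174 in the controls and 0.896, 0.676 and 0.227 in the induced libraries, and Psmb10 was below Psmb7 in all 6.

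All 3 ratios were higher in the induced library of each pair. The log2 difference in pairs 1 to 3 was 1.30, 0.83 and 0.96 for Psmb8 over Psmb5, 1.92, 1.26 and 1.27 for Psmb9 over Psmb6, and 2.25, 1.67 and 0.39 for Psmb10 over Psmb7. For Psmb10 over Psmb7 the groups did not overlap, and for the other 2 ratios control replicate 2 lay above induced replicate 3. The two-sided exact permutation p was 0.2, 0.2 and 0.1 in that order, and 0.2 for each after adjustment over the 3 ratios. With 3 libraries a group this test cannot go below 0.1, so it cannot pass the threshold.

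**Figure D3:**
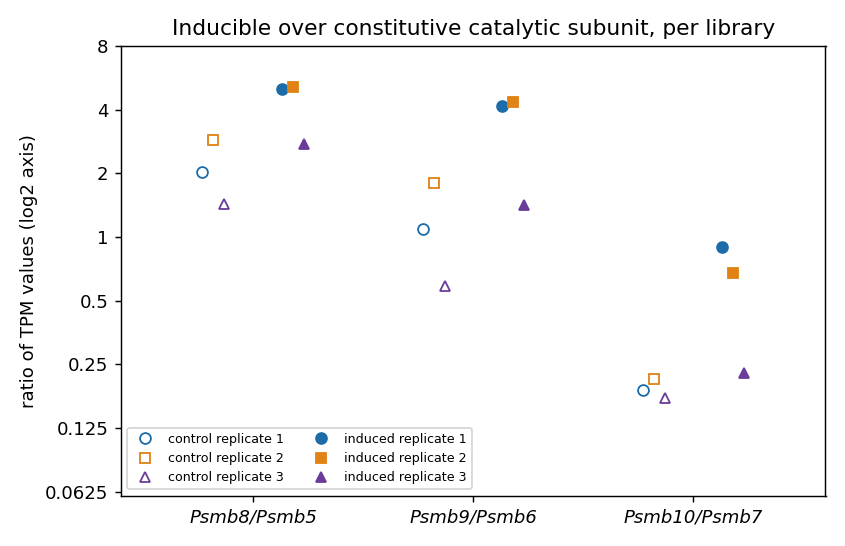
Ratio of the TPM of each inducible catalytic subunit gene to that of the constitutive gene it replaces, per library, on a log2 axis; open symbols are controls and filled symbols induced libraries. The Psmb10 to Psmb7 ratio of induced replicate 3 is 0.227, next to the control range of 0.174 to 0.213, whereas induced replicates 1 and 2 are at 0.896 and 0.676.

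The remaining genes of the 20S core shared the lower means. The 7 alpha ring genes Psma1 to Psma7 had log2 fold changes from -0.40 to -0.23 with a median of -0.30, and 5 of them were lower in all 3 pairs. The exceptions were Psma2 and Psma5, which were 0.02 and 0.06 higher on the log2 scale in pair 1 and lower in pairs 2 and 3. The 4 beta ring genes without a cutting site, Psmb1 to Psmb4, had log2 fold changes from -0.44 to -0.23 and were lower in all 3 pairs. Psma6, an alpha ring gene, had 204, 223 and 193 CPM without doxycycline and 157, 151 and 161 CPM with it, with an edgeR log2 fold change of -0.40 (SE 0.131, adjusted p = 0.197). Its groups did not overlap, and it was not called by DESeq2 without or with the replicate block (adjusted p = 0.0792 and 0.0937). Psma6 stands outside the naming rule and was picked with its values in view.

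The 19S cap genes behaved much like the core. The 6 ATPase genes Psmc1 to Psmc6, which form the unfolding ring, had a median of -0.30, and 5 were lower in all 3 pairs. The exception, Psmc2, had the smallest difference of the constitutive genes, with 200, 205 and 184 CPM without doxycycline and 206, 225 and 141 CPM with it (log2 fold change -0.05, SE 0.196, edgeR adjusted p = 0.927). The 11 other cap genes, which include the ubiquitin receptor gene Psmd4 and the deubiquitinase gene Psmd14, had a median of -0.31, and 9 were lower in all 3 pairs.

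Psmd6 and Psmd12, which encode subunits of the lid of the cap, had the lowest log2 fold changes of that group. Psmd12 had 131, 103 and 154 CPM without doxycycline and 97.6, 75.5 and 111 CPM with it. The induced library was lower by 0.43, 0.45 and 0.48 on the log2 scale in the 3 pairs, which is nearly the same difference each time, yet the groups overlapped because the replicate numbers differed from one another in both groups. Psmd6 had 94.6, 80 and 120 CPM against 66, 50.4 and 94.5 CPM, with the same overlap. Their edgeR adjusted p were 0.317 and 0.375 for Psmd12 and Psmd6, and DESeq2 gave 0.319 and 0.389 without the replicate block and 0.0302 and 0.0316 with it.

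Counted over the 31 constitutive core and cap genes, 26 were lower in all 3 pairs, where 25.8% of all genes tested were, and 16 had groups that did not overlap, where 13% of all genes lay lower in this way. Their summed level was 6185, 5731 and 6248 CPM without doxycycline and 5371, 4486 and 4862 CPM with it, so that the sums of CPM did not overlap either. The median difference was -0.20, -0.44 and -0.38 in pairs 1 to 3, and the EFPC pair was the only one with all 31 genes lower. The size of the shift depended on the scale. On the deposited TPM, where the median of all genes tested was 0.04, 0.18 and 0.00 in pairs 1 to 3, the constitutive medians were -0.11, -0.23 and -0.37, and 20 of 31 genes were lower in all 3 pairs, where 19% of all genes were. The 6 genes that differed had a small positive difference on TPM in 1 pair, except for Psma3 with a larger one, namely Psma3 and Psmb4 in pair 1 and Psmc4, Psmc5, Psmd1 and Psmd14 in pair 2. The summed TPM of the 31 genes overlapped between the groups, at 8485, 7423 and 9450 TPM without doxycycline against 8000, 6509 and 7326 TPM with it. The signs of all 31 fold changes stayed negative in edgeR with DESeq2 size factors and with library totals only.

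The 5 immunoproteasome genes had a summed level of 756, 1003 and 589 CPM without doxycycline and 1881, 1339 and 764 CPM with it. Induced replicate 3 thus lay below control replicate 2. Of the 5 genes, 4 were higher in all 3 pairs, where 21.2% of all genes tested were, and none had groups that did not overlap, where 11.2% of all genes lay higher in this way.

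Assembly chaperone genes had lower means as well. Psmg1, whose product pairs with that of Psmg2 to build the alpha ring, had 53.8, 56 and 51.9 CPM without doxycycline and 38.5, 36.5 and 36 CPM with it. The groups were far apart against a spread of at most 5 CPM within each, and the difference was -0.48, -0.62 and -0.53 on the log2 scale in pairs 1 to 3. Psmg1 had the lowest edgeR p of the 49 members, with a log2 fold change of -0.54 (SE 0.119, edgeR adjusted p = 0.152). It fell by DESeq2 without the replicate block (adjusted p = 0.0068) and with it (adjusted p = 0.0142). Psmg2, Psmg3 and Psmg4 had log2 fold changes of -0.29, -0.14 and -0.16 and passed no test on all 6 libraries, nor did the 3 cap chaperone genes Psmd5, Psmd9 and Psmd10, with -0.43, -0.27 and -0.23.

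The other regulators of the core did not share either pattern. Psme3, which encodes the nuclear gamma form of PA28, had 252, 199 and 336 CPM without doxycycline and 273, 273 and 283 CPM with it. Psme4, which encodes the activator PA200, had 195, 165 and 209 CPM against 198, 204 and 201 CPM. Psmf1, which encodes the inhibitor PI31, had 59.4, 54.6 and 54.4 CPM against 82.4, 61.6 and 53.7 CPM. The induced values of the first 2 genes lay within the control range, and only induced replicate 1 of Psmf1 stood above its controls by more than 3 CPM. The log2 fold changes were 0.07, 0.09 and 0.23 with edgeR adjusted p of 0.879, 0.787 and 0.532.

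Psme2b is a copy of Psme2 on chromosome 11 (48945345 to 48946410, GRCm38.p6) whose transcript matched that of Psme2 at 99.4% over 794 aligned bases, so reads of one gene can be counted for the other. It had 25, 10 and 24 reads in the controls and 398, 246 and 18 reads in the induced libraries, or 0.623, 0.32 and 0.659 against 13.2, 6.21 and 0.405 CPM. The first 2 induced libraries stood far above the controls and the third among them. The log2 fold change was 3.60 (SE 1.08, edgeR adjusted p = 0.186). DESeq2 called it without the replicate block (adjusted p = 0.00163) and did not with it (adjusted p = 0.104). Psme2b also overlaps 9930111J21Rik1 by 261 bases, a gene that had 2.89, 1.31 and 4.5 CPM without doxycycline and 80.6, 36.4 and 4.48 CPM with it, and the part of either neighbour or parent in the Psme2b counts was not tested.

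Of the other special forms, Psma8, which encodes a testis form of an alpha subunit, had 37.7, 43 and 37.6 CPM without doxycycline and 34, 48.6 and 42.9 CPM with it (log2 fold change 0.09, edgeR adjusted p = 0.82). Psmb7-ps2, a pseudogene whose sequence matched Psmb7 at 89% over 835 aligned bases, had between 2 and 15 reads. Psmc3ip, the recombination factor, had 20.5, 16.5 and 23.8 CPM without doxycycline and 16, 11.7 and 13.8 CPM with it, without overlap (log2 fold change -0.55, SE 0.204, edgeR adjusted p = 0.236).

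Among 25 tested partners of the proteasome outside the subunit names, 12 had positive and 13 negative log2 fold changes, with a median of -0.06. edgeR and DESeq2 without the block called 0 of them, and edgeR had 2 higher (Nfe2l2 and Zfand2a) and 0 lower at an unadjusted p under 0.05, where 9.34% of all genes were higher and 8.23% lower. DESeq2 with the replicate block called Ddi2 higher (adjusted p = 0.0058), whose product is known to activate NFE2L1 by cutting it, and Uchl5 lower (adjusted p = 0.0157), a deubiquitinase gene of the cap, where 6.4% of all genes were called higher and 4.73% lower. Nfe2l1, the transcription factor gene known to drive proteasome genes when the complex is inhibited, had 156, 193 and 122 CPM without doxycycline and 340, 343 and 96.6 CPM with it. Its level was thus higher in the first 2 pairs and lower in the EFPC pair (log2 fold change 0.73, SE 0.458, edgeR adjusted p = 0.442). The part of Nfe2l1 in the level of the constitutive genes was not tested. Pomp, which encodes a core assembly factor, and the cap receptor gene Adrm1 had log2 fold changes of -0.21 and -0.24, and Sem1, a small cap subunit gene, had -0.40, with edgeR adjusted p of 0.592, 0.527 and 0.412.

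Transcription factors known to act on immunoproteasome and class I genes were higher in the induced libraries, most in pair 1 and least in pair 3. Of 7 tested genes on that list, all had positive log2 fold changes, 6 were called higher by DESeq2, where 4.25% of all genes were, and 0 by edgeR. The groups did not overlap for 5 of them, where 11.2% of all genes lay higher in this way. Irf1 had 19.5, 23.4 and 17.4 CPM without doxycycline and 301, 136 and 20.7 CPM with it (DESeq2 adjusted p = 0.0322). Nlrc5, an activator of class I genes, had 18.6, 13.1 and 16.3 CPM against 291, 195 and 39.8 CPM (DESeq2 adjusted p = 3.31e-07). Both were highest in induced replicate 1 and lowest, among the induced libraries, in replicate 3. Their edgeR adjusted p were 0.174 and 0.136. With the replicate block DESeq2 called Nlrc5 (adjusted p = 0.00221) but not Irf1 (adjusted p = 0.0837). The part of these factors in the level of the immunoproteasome genes was not tested.

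Genes that act after the proteasome in class I presentation were called in part. Of 11 tested, DESeq2 called 6 higher and none lower, both without the replicate block (4.25% of all genes higher) and with it (6.4%), and edgeR called 0. In both fits these held B2m, Erap1, H2-K1, Tap1 and Tapbpl, joined by Tapbp without the block and by H2-D1 with it. B2m, the light chain of class I molecules, had 489, 634 and 307 CPM without doxycycline and 2189, 1618 and 517 CPM with it (edgeR adjusted p = 0.201, DESeq2 adjusted p = 0.0204). Its log2 differences in pairs 1 to 3, 2.16, 1.35 and 0.75, had the same order as those of Tap1.

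The widest gap between counts and TPM among the members was that of Psma3. Psma3, an alpha ring gene, had 208, 191 and 204 CPM without doxycycline and 178, 135 and 154 CPM with it, which is lower in each pair. Its deposited TPM was 158, 133 and 352 in the controls and 284, 121 and 133 in the induced libraries, which is higher in pair 1 by 0.84 on the log2 scale and lower in pairs 2 and 3. The scales differed by at most 1.07 for Psma3 and by over 0.5 for no other tested member, where 4.31% of all genes tested differed by over 0.5. The CPM values and the tests rest on counts, and the TPM of Psma3 was not used in any ratio.

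**Figure D4:**
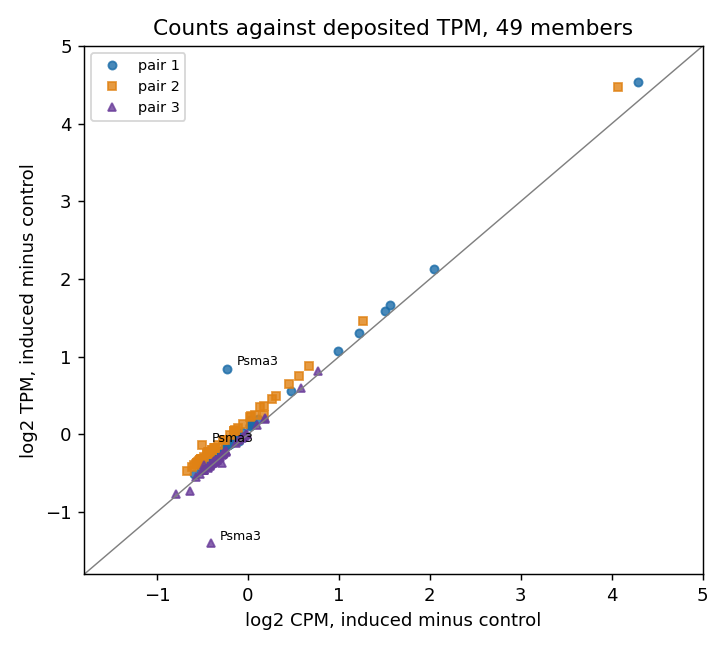
Difference between the induced and the control library of each pair for the 49 tested members, on log2 CPM from counts (x axis) and on log2 of the deposited TPM (y axis), with the line of equality. Points of Psma3 lie off the line in each pair, furthest in pairs 1 and 3. Points of pair 2 lie slightly above the line, and the median of all genes on the TPM scale is 0.18 in that pair.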

How the data were processed

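The authors deposited, for each gene, the raw count of reads in whole numbers, with at least 1 in every library, and TPM values. Their log2 and FPKM values were not used, and their deposited adjusted p-values served only to set beside the DESeq2 fit. The submitters' processing notes name HISAT2, DESeq2 and mm10, with no version. No source used here names the counting program, its annotation or its use of strand. The kit selects mRNA and keeps the strand, per the labels.

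Tests on the counts used edgeR 4.0.16 in R 4.3.3 (filterByExpr, TMM, quasi-likelihood test with the group as its only term) and DESeq2 1.42.0, over all genes, with Benjamini-Hochberg adjustment and a threshold of 0.05. The SE given with an edgeR fold change is the fold change divided by the square root of its F statistic. CPM is after TMM scaling, and a prior count of 2 was added for log2 CPM. Genes without a read in some library were not analysed here. Positions and start windows come from RefSeq tables on GRCm38.p6, in which 14205 of 14238 gene IDs matched. The scripts were tested on simulated data.

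Deviations from the group means correlated between same-numbered libraries (r = 0.174, 0.342 and 0.352 across genes for replicates 1 to 3). Each library correlated best with its own number, though control replicate 1 also had r = 0.149 with induced replicate 2. The replicate number, which is also the EF1, EF2 and EFPC prefix of the titles, was therefore used as a block in alternative fits. Other alternatives were DESeq2, DESeq2 size factors, no low-count filter, each library or pair left out, and, added after seeing the data, library totals as the only scaling. Named were the immunoproteasome genes, the constitutive catalytic subunits, Psme3, Psme4 and Psmf1, the 3 highest and 3 lowest other members, Psmc3ip, and preset genes around the pathway, of which 1 is not reported here; a member named outside this rule is one that a count of 5 or fewer fell on, unless stated. The members and lists were chosen with earlier results of these data known.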

Additional observations from a re-analysis of the deposited data

How the results depend on the processing

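No immunoproteasome or constitutive gene was called by edgeR with TMM, DESeq2 size factors, library totals only, no filter on low counts or the replicate block, or by DESeq2 without the block. DESeq2 with the replicate block called 3 immunoproteasome genes higher and 3 constitutive genes lower, and over all genes 770 higher and 569 lower, against 558 and 348 in DESeq2 without it; the block changed no edgeR call. Leaving out libraries or pairs gave 0 to 3 immunoproteasome genes called higher by edgeR, 0 constitutive genes in either direction, and over all genes 0 to 1300 called higher and 0 to 844 called lower, with calls only where induced replicate 3 or replicate 3 of both groups was left out (619 higher and 273 lower without induced replicate 3). Which property of the EFPC pair lies behind this was not tested. Over all settings the immunoproteasome median stayed between 0.42 and 1.19 with 5 of 5 genes positive, and the constitutive median between -0.41 and -0.24 with 29 to 31 of 31 genes negative. The 3 log2 ratios kept their sign when a library or pair was left out. They ran from 0.77 to 1.32 for Psmb8 over Psmb5 and from 1.07 to 2.01 for Psmb9 over Psmb6. For Psmb10 over Psmb7 the range was 1.03 to 2.03. The paired permutation test with the replicate block has the same differences of 1.03, 1.49 and 1.43 by construction. Its smallest p is 0.25, so it cannot pass the threshold. Among named genes the sign turned for Psme3 (-0.065 without control replicate 2 and -0.058 without replicate 2, from -0.065 to 0.29 over all), Psmc2 (0.014 without control replicate 2, 0.14 without induced replicate 3 and 0.087 without replicate 3, from -0.16 to 0.14) and Psma8 (-0.017 without induced replicate 2, from -0.017 to 0.21), none of which was called in any fit. Each group has 3 libraries, and the effect of sequencing depth was not tested.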

Other observations

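Levels of the immunoproteasome genes differed among the 3 uninduced cultures. In the controls, Psmb8 had 403 CPM in replicate 2, 289 in replicate 1 and 205 in replicate 3, and Psmb9 had 193, 132 and 71.8 CPM in the same order. The order was the same for Psmb10, Psme2, Tap1, Tap2 and B2m, and for Psme1 it was replicate 2, then 3, then 1. Psmb8, Psmb9, Tap1 and Tap2 lie side by side on chromosome 17, between 34182030 and 34216321. Among the transcription factor genes, Irf1, Irf7 and Irf9 had the same order, with 23.4, 19.5 and 17.4 CPM for Irf1, and Nlrc5 did not, being highest in replicate 1 at 18.6 CPM. The order of replicates 2, 1 and 3 was not limited to these genes. Of the constitutive genes, Psmb1 had it, with 319, 263 and 209 CPM, and so did Psmb4, with 295, 261 and 200 CPM. Psmb5 and Psmb6 did not, being highest in replicate 3 at 102 and 140 CPM. Nor did the class I gene Erap1, highest in replicate 3 at 49 CPM. The share of all genes with this order was not counted. The pattern was noticed after the values were seen and was not tested.

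Psme2b lies in a stretch of chromosome 11 with genes of immunity-related GTPases. Irgm1 had 29.7, 34.7 and 28.2 CPM without doxycycline and 512, 300 and 33.7 CPM with it, and Tgtp1 had 11.5, 7.64 and 9.23 CPM against 1165, 630 and 14.7 CPM. Both were highest in induced replicate 1 and lowest, among the induced libraries, in replicate 3, as were Psme2b and all 5 immunoproteasome genes. This order is not particular to these genes. Among the constitutive genes, Psmb7 had it, with 164, 137 and 121 CPM in induced replicates 1 to 3. Psmb5, with 81.5, 67.7 and 78.7 CPM, did not. How many of all genes had this order was not counted.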
